A study of Mus musculus with 12 samples.

Results

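Vascular and meningeal fibroblast genes were followed, 9 of the 56923 gene rows in the table. They are Col1a2, Col15a1, Adamts12 and Osr2, of matrix and mesenchyme, and Cav1, Cav2, Tspan12, Gng11 and Tgfbr1, which endothelial and mural cells use among others. They were chosen by name, as collagen, caveolin and other endothelial or fibroblast genes on stretches of chromosomes 4, 6 and 15, a choice by name and place that was made with earlier results of these data known. RNA was sequenced from brain sections of WT mice held for 5 h in aCSF, the artificial cerebrospinal fluid that keeps slices alive, or in aCSF with L-fucose, a deoxy sugar that cells build into glycans. There were 6 libraries in each group, named here by group and number. All libraries share the WT genotype and the aCSF bath. The labels used here state no age, sex or strain. Sample titles carry the same WT numbers in both groups, and whether a shared number means a shared animal is not stated. The main test did not pair the libraries. Nothing in the labels says whether libraries came from separate animals, so p-values measure the spread between these libraries, which may be technical.

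The brain's vessels are lined by endothelial cells, wrapped by mural cells and, at the larger vessels and in the meninges, accompanied by fibroblasts that lay down collagen. Caveolae are flask-shaped pits of the plasma membrane that caveolins build, and endothelial cells in much of the body are rich in them, while those of brain capillaries hold few. TGF-beta receptors on vascular cells pass signals to SMAD proteins, and TSPAN12 aids Norrin signalling through Frizzled-4, a pathway best known from the retina's vessels.

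A gene's name is used here as the row gives it, and rows of this table do not everywhere hold what their names say. The match between row levels and protein-coding exons was therefore scanned along chromosomes 4, 6 and 15 of GRCm38, displacing the rows by up to 600 kb. By the share of a row's exonic bases that fell on protein-coding exons, all 9 genes lay in 4 regions where the best match was within 1000 bp of no displacement, and these regions held 1280 rows, called in register here. By the mere presence of an exon, the same scan left 1 region of 140 rows, on chromosome 4 from 10.49 to 22.53 Mb, with 0 of the 9 genes inside. Under presence the best displacement in windows that covered the genes ran from -4000 bp, at Gng11 and Col1a2, to 23000 bp, at Cav1 and Tspan12, though the correlation with no displacement was still 0.571 to 0.804. The share was kept after both outcomes were known, so the names below rest on that choice.

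The cell types behind the genes could not be checked from most of their defining markers. Of 18 endothelial markers and 12 mural markers 0 lay in register, and of 18 markers of meningeal and perivascular fibroblasts 2 did, Col1a2 and Osr2, both among the genes described. In RNA from whole sections, fewer cells of a type and less RNA per cell cannot be told apart. Libraries held 9191687 to 18563078 reads, with a median of 11168285. The libraries aCSF 5 and aCSF 6 stood apart, with 41.9% and 44.8% of reads on the mitochondrial genome against 27.6% to 40.5% in the other 10, and with the fewest rows above 0 (14340 and 14856 against 16514 to 19014). Results are therefore also given without them for part of the genes, and genes with no such value may differ too.

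The 250 bases before the transcription start are shown for Cav1, Cav2, Tspan12 and Tgfbr1, because the 4 highest correlations between libraries, given further on, were all among these genes. They are from RefSeq on GRCm38.p6, and 7 of the 9 genes had an entry, all but Gng11 and Osr2. The windows are chr6:17306085-17306334 (plus strand) for Cav1, chr6:17280935-17281184 (plus) for Cav2, chr6:21852534-21852783 (minus) for Tspan12 and chr4:47352972-47353221 (plus) for Tgfbr1. Capitals mark 4 motifs searched on both strands, a CCAAT box, the core of a GC box, a TATA box and a SMAD-binding element, each spelled out after the sequences. No marked run overlaps another.
Cav1: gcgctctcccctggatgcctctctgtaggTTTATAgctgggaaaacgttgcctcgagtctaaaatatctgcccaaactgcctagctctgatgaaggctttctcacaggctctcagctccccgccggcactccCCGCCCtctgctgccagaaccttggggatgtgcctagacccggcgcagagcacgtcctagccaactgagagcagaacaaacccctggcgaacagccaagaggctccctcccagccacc
Cav2: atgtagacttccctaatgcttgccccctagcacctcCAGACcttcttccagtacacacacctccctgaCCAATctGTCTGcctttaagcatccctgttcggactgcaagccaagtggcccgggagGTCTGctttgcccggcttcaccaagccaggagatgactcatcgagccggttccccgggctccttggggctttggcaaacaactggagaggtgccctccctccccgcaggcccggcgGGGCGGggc
Tspan12: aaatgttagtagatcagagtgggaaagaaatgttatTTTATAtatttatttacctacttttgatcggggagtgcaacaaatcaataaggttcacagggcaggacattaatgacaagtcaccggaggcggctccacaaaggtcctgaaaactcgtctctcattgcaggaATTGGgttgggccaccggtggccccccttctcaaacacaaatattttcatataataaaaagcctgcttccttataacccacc
Tgfbr1: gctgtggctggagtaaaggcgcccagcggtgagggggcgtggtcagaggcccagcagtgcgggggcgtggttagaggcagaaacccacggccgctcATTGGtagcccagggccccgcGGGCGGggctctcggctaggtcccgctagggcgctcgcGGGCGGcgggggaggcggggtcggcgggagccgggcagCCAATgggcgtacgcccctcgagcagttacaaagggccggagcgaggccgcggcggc
No capital run is shared by all 4 windows. The CCAAT box, searched as CCAAT, stood in the windows of Cav2, Tspan12 and Tgfbr1, with a pair in Tgfbr1 at 57 to 53 bases and, on the other strand, 154 to 150 bases before the start. The core of a GC box, searched as GGGCGG, stood in those of Cav1, Cav2 and Tgfbr1, and the TATA box, searched as TATAAA, stood on the opposite strand in those of Cav1 and Tspan12, over 200 bases from the start. The SMAD-binding element, searched as CAGAC, was found 3 times in the window of Cav2 and not in the other 3 windows. Over 27025 RefSeq promoter windows of the same length, 34.5% held the CCAAT box at least once and 33% the GC box core. The TATA box was held at least once by 13% and the SMAD-binding element by 42.2%. How many windows hold the SMAD-binding element 3 times was not counted, and the window of Col1a2, not shown, held it 1 time. The Tgfbr1 window had 74.8% G and C, that of Tspan12 42%, and the median over all windows was 52%. In GENCODE M21 the windows of Cav1 and Cav2 lie in an intron of the antisense gene Gm15581, and 193 bases of the Tspan12 window are exonic in the antisense gene Gm30270.

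Levels are normalized reads, meaning reads over a size factor for each library. Per kb of exon, Gng11, which encodes a gamma subunit of heterotrimeric G proteins, had the highest level, 928 ± 167 (SD over 12 libraries), and lay above Cav2 in all 12. Cav2 followed at 344 ± 66.0 per kb, Tspan12 at 226 ± 31.7, Cav1 at 161 ± 20.1 and Tgfbr1 at 121 ± 19.1. The ranges of neighbours within that stretch overlapped, although within a library Cav2 exceeded Tspan12 in 12 of 12 and Cav1 exceeded Tgfbr1 in 11 of 12. The collagens came next with overlapping ranges, Col15a1 at 49.5 ± 13.0 per kb and Col1a2 at 43.2 ± 8.0. Within a library Col15a1 exceeded Col1a2 per kb in 9 of 12. Lengths here are the merged exons of all annotated transcripts, 12426 bases for Col1a2 and 6349 for Col15a1, and the order rests on them. Without division by length Col1a2 was the higher, its ratio to Col15a1 being at least 1.018 in aCSF and 1.499 in L-fucose. Osr2 at 0.735 ± 1.13 and Adamts12 at 0.575 ± 0.587 per kb were apart from the other 7 in every library and not from each other.

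**Figure D1:**
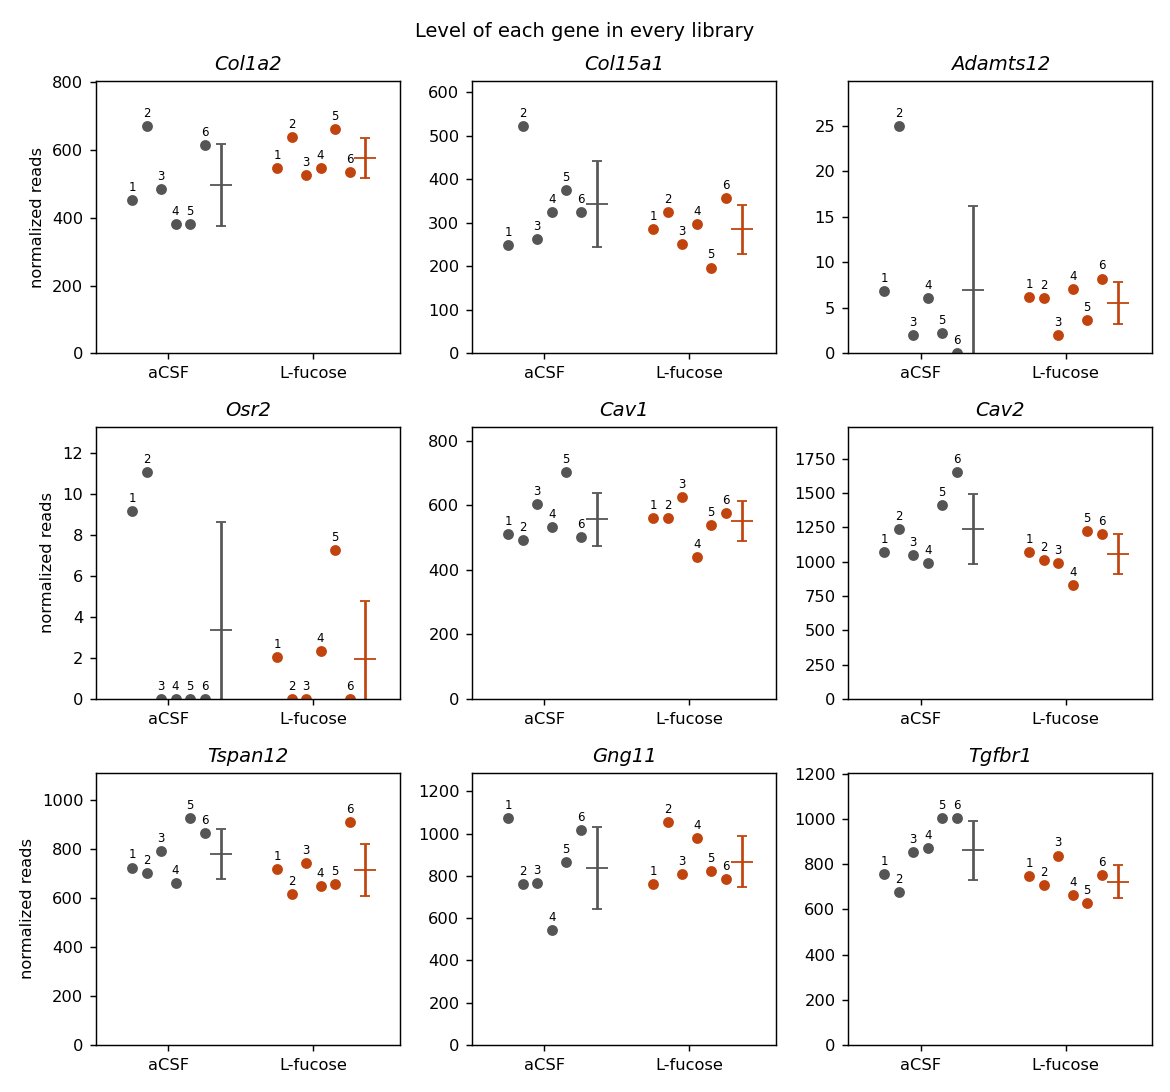
Normalized reads of each of the 9 genes (vertical axis, from 0) in the 6 aCSF libraries (grey) and the 6 L-fucose libraries (orange), each point a library with its number, and the bar the group's mean ± SD. The groups overlap for every gene, aCSF 2 is the highest library for Col1a2, Col15a1, Adamts12 and Osr2, and Osr2 is at 0 in 7 libraries.

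The comparison asks which of these transcripts differ after 5 h with the sugar. No gene passed the adjusted threshold of 0.05, in limma on log2(value + 1) with Benjamini-Hochberg adjustment over all tested rows. The same held for every tested row, 0 of 10787 (0%), while 643 (5.96%) had an unadjusted p under 0.05, 3.17% on the higher and 2.79% on the lower side. edgeR on reads recovered from the values gave 0 rows past the adjusted threshold with 604 unadjusted, and DESeq2 1 row, none of these genes, with 1054 unadjusted. Of the 9 genes 7 were tested, and 1 of them, Tgfbr1, had an unadjusted p under 0.05, against 8.96% of 424 tested rows in register. Osr2 and Adamts12 reached a value of 10 in 1 library each and were below the level for testing.

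Among the matrix genes, Col1a2, the alpha-2 chain of type I collagen, stood at 451.5, 669.7, 483.5, 380.8, 381.4 and 614.2 normalized reads in aCSF 1 to 6. In L-fucose 1 to 6 it stood at 547.7, 638.0, 527.2, 548.0, 662.8 and 536.1. All 6 L-fucose libraries were above the aCSF median of 467.5, but aCSF 2 and aCSF 6 lay among or above them. Means were 497 ± 121 for aCSF and 577 ± 58.2 for L-fucose (SD, n = 6 each), a log2 fold change of 0.24 ± 0.14 (SE; 95% interval -0.05 to 0.54; limma adjusted p = 0.848, unadjusted 0.104). Without aCSF 2 the log2 fold change was 0.34, with limma's p at 0.0240 unadjusted and 0.862 adjusted. Col1a2 (ENSMUSG00000029661) lies on the plus strand of chromosome 6 from 4504814 to 4541544.

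Col15a1 encodes collagen XV, a collagen of basement membrane zones found around vessels. It stood at 248.6, 521.0, 262.5, 325.4, 374.7 and 324.2 normalized reads in aCSF 1 to 6 and at 286.2, 323.6, 251.0, 295.8, 197.0 and 357.7 in L-fucose 1 to 6. Of the L-fucose libraries 5 lay below the aCSF median of 324.8, and L-fucose 5 was the lowest of all 12. The log2 fold change was -0.24 ± 0.18 (SE; 95% interval -0.62 to 0.13; limma adjusted p = 0.872), and without aCSF 2 it was -0.12. Without aCSF 5 and 6 it was -0.21 (-0.62 to 0.20). Its within-group spread, 25.6%, was the widest among the 7 tested genes, against 5.62% from counting alone. The row (ENSMUSG00000028339) lies on the plus strand of chromosome 4 from 47208161 to 47313167, and 0.221% of its exonic bases are shared with an antisense gene. Whether reads were counted by strand is not stated in these sources, so such reads cannot be assigned.

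The ratio of Col1a2 to Col15a1 was examined after these values were seen. It was 1.02 to 1.89 in aCSF and 1.499 to 3.36 in L-fucose, with means of 1.504 ± 0.3897 and 2.12 ± 0.643 (SD, n = 6 each), so that the groups overlapped. The other ratio examined, of Cav2 to Cav1, was 2.26 ± 0.578 for aCSF and 1.93 ± 0.238 for L-fucose (SD, n = 6 each). Since both were picked out of 21 possible pairs with the values in view, they are given with no test.

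Adamts12, a secreted metalloprotease of the matrix, gave 81 reads over all libraries, 43 in aCSF and 38 in L-fucose. Its level was 24.94 normalized reads in aCSF 2 and between 0 and 8.223 in the other 11 libraries. Osr2, a zinc finger transcription factor of mesenchyme, gave 32 reads, 20 in aCSF and 12 in L-fucose. It was at 0 in 4 aCSF libraries and 3 L-fucose libraries. A floor of 3 reads, set here for a count of 0 and not a hard maximum, would be 1.82 to 3.67 normalized reads across libraries. The 5 libraries with reads were aCSF 1 and 2, at 9.167 and 11.08, and L-fucose 1, 4 and 5, at 2.067, 2.357 and 7.263. A difference between the groups was not detectable at this depth for either gene. Adamts12 (ENSMUSG00000047497) lies on chromosome 15 from 11064790 to 11349231 and Osr2 (ENSMUSG00000022330) from 35296098 to 35303305, both on the plus strand.

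The library aCSF 2 was the highest of 12 for all 4 of these matrix and mesenchyme genes. Over the tested rows in register it was the highest for 11.1%, and over 136 untested rows in register with at least 20 reads for 11.03%. Of the 19 tested vascular, mesenchymal and matrix genes near the 9, described further on, it was the highest for 2, Met and Pon3. Among the 4 genes, Adamts12 and Osr2 were low, with 27 and 12 reads in aCSF 2. The library aCSF 2 also had the highest sum of the choroid plexus and ependyma markers in register (4 of 10 markers), at 985.6 normalized reads. Prlr made up 581.9 of this sum, Cfap206 174.6, Spef2 129.3 and Capsl 99.76. Capsl was higher in aCSF 1, 3 and 5, at 119.2, 143.1 and 153.7. The sum of the 4 markers was 456 to 986 in aCSF and 314 to 572 in L-fucose. The lowest sum of all was in L-fucose 5. Among the L-fucose libraries this one was the highest for Col1a2, at 662.8, and Osr2, at 7.263. It was the lowest for Col15a1, at 197.0, and had 3.632 for Adamts12. Outside the regions in register, Ttr and Kl, defining choroid plexus genes, were at 0 in 12 of 12 libraries. The other markers there, Folr1, Foxj1, Aqp1 and Clic6, reached 1865, 338, 23.68 and 5.729 normalized reads. The part of these markers in the levels of the 4 genes was not tested.

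Among the genes of caveolae, Cav1, the main coat protein of these pits, stood at 509.9, 491.4, 603.9, 533.9, 702.3 and 500.4 normalized reads in aCSF 1 to 6 and at 560.1, 559.5, 625.4, 438.4, 538.4 and 577.3 in L-fucose 1 to 6. The highest library was aCSF 5 and the lowest L-fucose 4, with the others intermixed. The log2 fold change was -0.01 ± 0.12 (SE; 95% interval -0.27 to 0.24; limma adjusted p = 0.989). Its sign turned when aCSF 3, aCSF 5 or L-fucose 4 was left out, over a range of -0.05 to 0.05. Cav1 (ENSMUSG00000007655) lies on the plus strand of chromosome 6 from 17306335 to 17341452, and Cav2 (ENSMUSG00000000058) just before it on the same strand, from 17281185 to 17289115.

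Cav2, which joins Cav1 in the caveolar coat, stood at 1074, 1237, 1048, 991.2, 1415 and 1652 normalized reads in aCSF 1 to 6. In L-fucose 1 to 6 it stood at 1069, 1012, 989.7, 830.8, 1226 and 1205. The high values were in aCSF 5 and 6, and 4 of 6 L-fucose libraries lay below the aCSF median. The log2 fold change was -0.22 ± 0.13 (SE; 95% interval -0.49 to 0.05; limma adjusted p = 0.849, unadjusted 0.112). Without aCSF 5 and 6 it was -0.05, with an interval from -0.29 to 0.19. The caveola list held 14 symbols, older names of the same genes included, and 10 of them had a row. Of these 10, 3 were in register, Cav1, Cav2 and the muscle caveola gene Cavin4. Past either threshold were 0 of 3, and Cavin4 had a log2 fold change of -0.09 (-0.90 to 0.72).

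Of the receptors and signalling proteins, Tgfbr1, the type I receptor kinase for TGF-beta, stood at 756.2, 676.1, 854.6, 873.3, 1005 and 1005 normalized reads in aCSF 1 to 6. In L-fucose 1 to 6 it stood at 746.1, 709.1, 838.9, 662.3, 629.2 and 750.8. Each of the 6 L-fucose values lay below the aCSF median of 864, yet aCSF 1 and aCSF 2 lay within their range. Means were 862 ± 132 for aCSF and 723 ± 74.1 for L-fucose (SD, n = 6 each), a log2 fold change of -0.25 ± 0.12 (SE; 95% interval -0.49 to -0.003; limma adjusted p = 0.835, unadjusted 0.0475). In register, 7.31% of tested rows were lower and 1.65% higher at that unadjusted threshold of 0.05. Without aCSF 5 and 6, the 2 highest libraries, the log2 fold change was -0.13 with an unadjusted limma p of 0.285. Of the 16 genes listed for TGF-beta signalling 2 were in register, and the other, Map3k7, a kinase downstream of the receptors, had a log2 fold change of -0.13 (-0.31 to 0.05) and L-fucose values under the aCSF median in 6 of 6 libraries. Tgfbr1 (ENSMUSG00000007613) lies on the plus strand of chromosome 4 from 47353222 to 47414931.

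Tspan12 stood at 725.3, 703.9, 794.4, 661.8, 927.7 and 866.3 normalized reads in aCSF 1 to 6 and at 720.3, 616.1, 744.8, 650.5, 656.4 and 911.9 in L-fucose 1 to 6. High values were found in both groups, in aCSF 5, L-fucose 6 and aCSF 6. The log2 fold change was -0.12 ± 0.12 (SE; 95% interval -0.37 to 0.12; limma adjusted p = 0.903), and without aCSF 5 and 6 it was -0.02. Tspan12 was the sole gene of the 8 listed for Norrin and Frizzled-4 signalling whose row was in register. The row (ENSMUSG00000029669) lies on the minus strand of chromosome 6 from 21771395 to 21852515 and shares 2.96% of its exonic bases with the antisense gene Gm30270.

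Gng11 stood at 1074, 759.3, 766.8, 544.9, 867.2 and 1019 normalized reads in aCSF 1 to 6 and at 761.6, 1053, 808.6, 978.1, 822.6 and 783.6 in L-fucose 1 to 6. The lowest and the highest library were both aCSF, and the L-fucose libraries lay between them. The log2 fold change was 0.07 ± 0.14 (SE; 95% interval -0.23 to 0.37; limma adjusted p = 0.954), and without aCSF 4 it was -0.04. Gng11 (ENSMUSG00000032766) lies on the plus strand of chromosome 6 from 4003904 to 4008445.

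All 7 intervals lay within 1 log2 unit of 0, as did 64.3% of those of all tested rows and 81.4% of those in register. The groups overlapped for each of the 9 genes, and failed to overlap for 0.287% of tested rows and 0.708% of those in register. Of the 7 log2 fold changes 2 were positive and 5 negative, with a median of -0.12, and 60.8% of the tested rows in register were negative, with 48% over all tested rows. In each of the 9 genes the highest library was an aCSF library, as it was in 66% of the tested rows in register and 60.4% of all tested rows. It was aCSF 2 in 4 of the genes, aCSF 5 in 3, aCSF 6 in Cav2 and aCSF 1 in Gng11. Over the tested rows in register aCSF 5 was the highest for 24.5% and aCSF 6 for 16.5%.

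**Figure D2:**
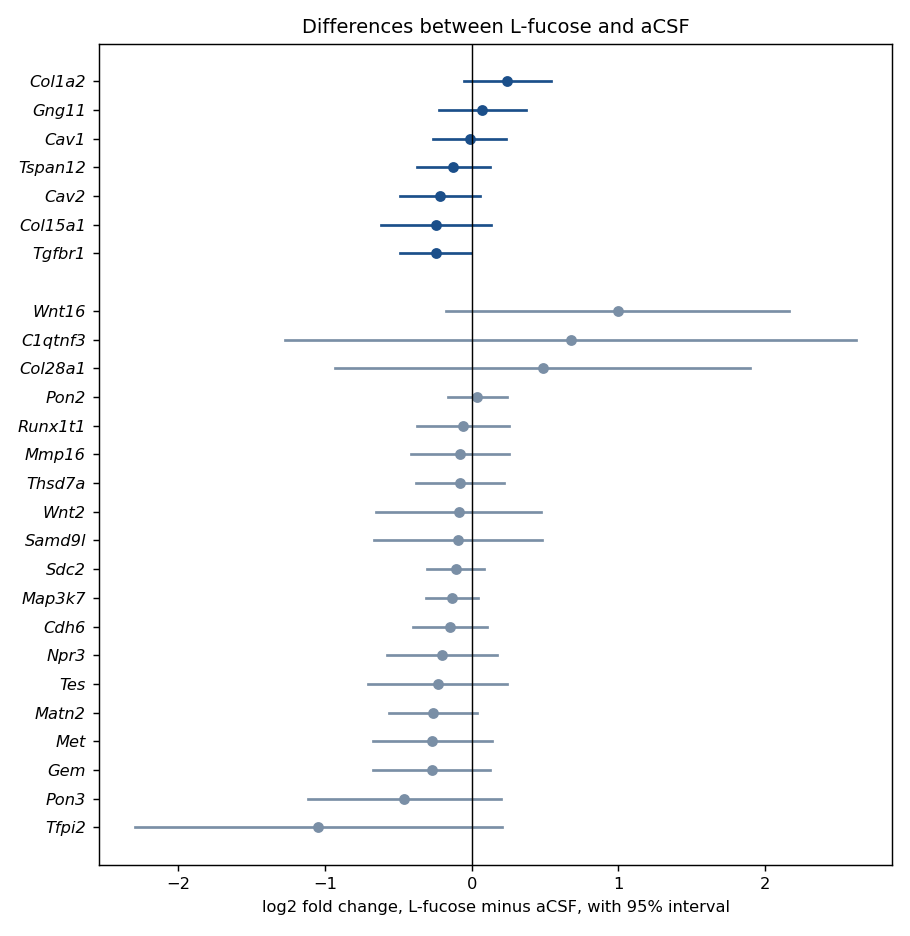
Log2 fold change on the log2(value + 1) scale, L-fucose minus aCSF (horizontal axis), with its 95% interval, for the 7 tested genes (dark, top) and for 19 tested vascular, mesenchymal and matrix genes near them (light, below). The interval of Tgfbr1 ends just below 0, the other 25 cross 0, and the widest intervals are those of C1qtnf3, Col28a1 and Wnt16, which are low, and of Tfpi2, which spread from 25.9 to 198 normalized reads in aCSF.

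A list of 20 vascular, mesenchymal and matrix genes near the 9 gave 19 tested rows, all but Vwde. With limma 0 of 19 had an unadjusted p under 0.05, 4 log2 fold changes were positive and 15 negative, and the median was -0.11 against -0.05 over the tested rows in register. Among growth factor and peptide receptors, Met, the receptor for hepatocyte growth factor, had 112.9 ± 18.4 normalized reads in aCSF and 93.3 ± 12.7 in L-fucose, and Npr3, the clearance receptor for natriuretic peptides, 204.6 ± 47.2 and 174 ± 23.1 (SD, n = 6 each). For both, L-fucose values were under the aCSF median in 6 of 6 libraries, and their log2 fold changes were -0.27 (-0.67 to 0.14) and -0.21 (-0.58 to 0.17). Without aCSF 5 and 6 that of Npr3 was -0.41 (limma adjusted p = 0.363, unadjusted 0.0176). In the same list Gem, Pon3, Map3k7 and Runx1t1 also had 6 of 6 L-fucose libraries under the aCSF median. Runx1t1 did so with a log2 fold change of only -0.06, and the share of all tested rows that do was not counted. Samd9l, a protein of the antiviral response, had a log2 fold change of -0.09 (-0.67 to 0.48), and Thsd7a, a membrane protein of endothelial cells, of -0.08 (-0.38 to 0.22).

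Among matrix and adhesion genes of the list, Matn2, a matrilin, had a log2 fold change of -0.26 (-0.56 to 0.04). Sdc2, the heparan sulfate proteoglycan syndecan-2, had -0.11 (-0.30 to 0.09), Cdh6, a cadherin, -0.15 (-0.40 to 0.10), Mmp16, a membrane-bound metalloprotease, -0.08 (-0.41 to 0.26) and Tes, a focal adhesion protein, -0.23 (-0.70 to 0.24). Sdc2 was abundant, at 1794 ± 180.4 normalized reads in aCSF and 1664 ± 156 in L-fucose (SD, n = 6 each). Col28a1, a collagen, and C1qtnf3, a secreted C1q-like protein, were near the level for testing, with log2 fold changes of 0.48 (-0.93 to 1.90) and 0.68 (-1.27 to 2.62). Tfpi2, an inhibitor of serine proteases in the matrix, ran from 25.9 to 198 normalized reads in aCSF and from 5.17 to 129 in L-fucose, and had the lowest log2 fold change of the list, -1.05 (-2.30 to 0.20). Without L-fucose 1 it was -0.55, and without aCSF 5 and 6 it was -0.51. Tes was at -0.37 without aCSF 2, -0.10 without L-fucose 2 and -0.07 without aCSF 5 and 6.

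Of the ligands and regulators, Wnt2 had a log2 fold change of -0.09 (-0.65 to 0.47) and Wnt16, at 11.5 ± 5.83 normalized reads in aCSF and 23.7 ± 13.2 in L-fucose (SD, n = 6 each), of 0.99 (-0.17 to 2.16). Gem, a small GTP-binding protein that restrains calcium channels, had -0.27 (-0.67 to 0.13). Without aCSF 2 the Gem log2 fold change was -0.48, with limma's p at 0.00185 unadjusted and 0.854 adjusted. Runx1t1, a transcriptional corepressor, had -0.06 (-0.37 to 0.25). The paraoxonases Pon2 and Pon3, lactone-cleaving enzymes, had 0.04 (-0.16 to 0.24) and -0.46 (-1.12 to 0.20).

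The genes were then compared over the 12 libraries, as log2(value + 1) with the mean of each group removed. Among the 21 pairs of tested genes 0 correlations passed the adjusted threshold (permutation test within groups, 100000 resamples), the smallest adjusted p being 0.388. Of the correlations 13 were positive and 8 negative, with a median Pearson r of 0.16 against 0.05 over all pairs of the 424 tested rows in register, where 10.4% of pairs had an r of at least 0.5. Rows of one library share its depth and its mitochondrial share.

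The highest correlations were among the genes of receptors and caveolae. Tspan12 and Tgfbr1 had r = 0.63 and Spearman's rho = 0.71 (permutation p = 0.0370 and 0.0204, adjusted 0.388 and 0.428). The r was 0.73 in aCSF and 0.54 in L-fucose, 0.66 without the 2 libraries farthest from the Tspan12 median, and 0.39 without aCSF 5 and 6. Cav2 and Tspan12 had r = 0.61 and rho = 0.52 (permutation p = 0.0480 and 0.109). Their r was 0.55 without the 2 libraries farthest from the Cav2 median and 0.38 without aCSF 5 and 6. Cav1 and Tgfbr1 had r = 0.60 and rho = 0.59 (permutation p = 0.0554 and 0.0616), with 0.55 in aCSF, 0.72 in L-fucose and 0.72 without aCSF 5 and 6. Without the 2 libraries farthest from the Cav1 median their r was 0.46. Cav1 and Tspan12 had r = 0.54 and rho = 0.57 (permutation p = 0.0899 and 0.0724). Their r fell to 0.25 without the 2 libraries farthest from the Cav1 median and was 0.49 without aCSF 5 and 6.

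The neighbouring genes of the caveolar coat did not stand out as a pair, since Cav1 and Cav2 had r = 0.25 and rho = 0.20 (permutation p = 0.472 and 0.562). Without the 2 libraries farthest from the Cav1 median, L-fucose 4 and aCSF 5, r was -0.53, so the positive value rested on them. The collagens Col1a2 and Col15a1 had r = 0.21 and rho = 0.09 (permutation p = 0.601 and 0.797), at 0.43 in aCSF and -0.45 in L-fucose, and -0.62 without aCSF 2 and 6. Col1a2 was negatively related to Cav1, r = -0.47 and rho = -0.48, and to Tgfbr1, r = -0.45 and rho = -0.47, with permutation p from 0.156 to 0.241 for r and neither past the adjusted threshold. Without aCSF 5 and 6 these were -0.21 and -0.75.

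**Figure D3:**
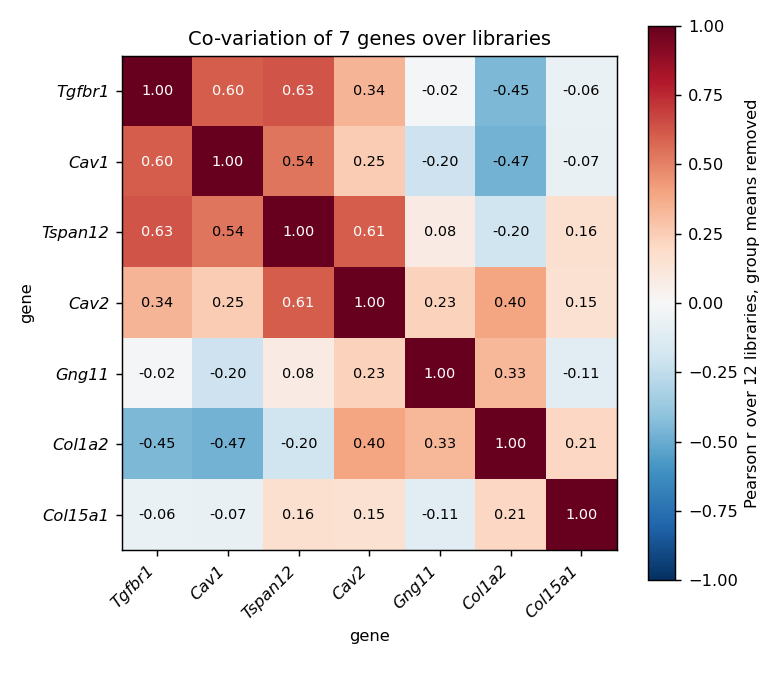
Pearson r between the 7 tested genes over 12 libraries, on log2(value + 1) with group means removed, as a colour from blue (-1) to red (1) with its value in each cell. Tgfbr1, Cav1 and Tspan12 form a warm block of 0.54 to 0.63, and Col1a2 is at -0.47 with Cav1 and -0.45 with Tgfbr1.

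Properties of the libraries were set beside the 7 genes in 21 relations, of which 1 passed the adjusted threshold. Cav2 went with the mitochondrial share, with r = 0.83 (permutation p = 0.00238, adjusted 0.04998) and rho = 0.79 (p = 0.00643, adjusted 0.135). An enumeration of all 518400 regroupings, added after this value was seen, gave an exact p of 0.00217, adjusted 0.0456. The r was 0.96 in aCSF and 0.50 in L-fucose, 0.69 without aCSF 4 and aCSF 6, the libraries with the lowest and the highest share, and 0.57 without aCSF 5 and 6 (permutation p = 0.0765, adjusted 0.438). Leaving out any single aCSF library, L-fucose 1 or L-fucose 6 also put the adjusted p above 0.05, with r from 0.72 to 0.91 over the 12 libraries left out in turn. With values rescaled to the reads outside the mitochondrial genome, r was 0.71 (permutation p = 0.0061, adjusted 0.105). Tspan12 had r = 0.72 and rho = 0.48 with the same share (permutation p = 0.0066 and 0.154, adjusted 0.0693 and 0.461). With the number of rows above 0, Tgfbr1 had r = -0.70 and rho = -0.72 (permutation p = 0.0292 and 0.0203, adjusted 0.153 and 0.213), and -0.36 without aCSF 5 and 6. What the mitochondrial share contributes to these levels was not tested.

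**Figure D4:**
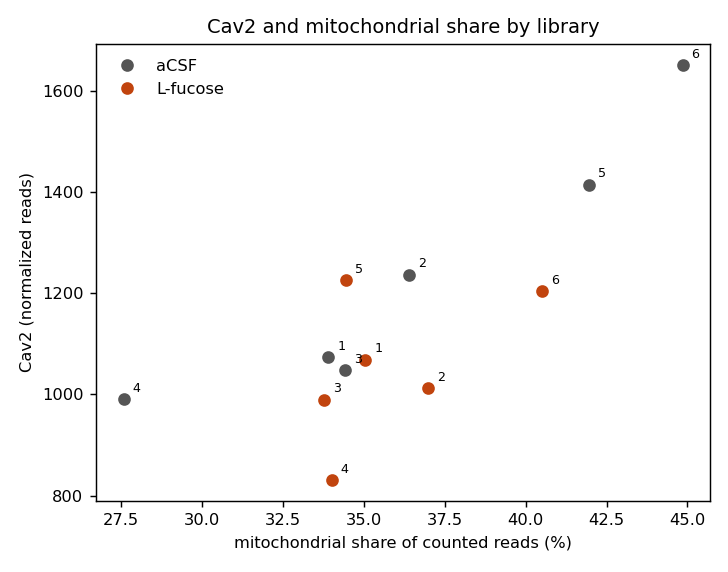
Normalized reads of Cav2 (vertical axis, starting above 0) against the share of reads on the mitochondrial genome in percent (horizontal axis), each point a library with its number, aCSF in grey and L-fucose in orange. Cav2 is highest in aCSF 5 and 6, at 41.9% and 44.8%, and near 1000 normalized reads at 27.6% in aCSF 4.

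The rows in register whose pattern over the 12 libraries was most like that of Col1a2, by Pearson r with group means removed, with predicted gene models left out, were Pon1 (0.87), Invs (0.74), Stk3 (0.70), Lyrm2 (0.70) and Pon3 (0.70). The model left out, Gm36899, ranked second at 0.76. Pon1 was low, at 11.01 ± 15.1 normalized reads in aCSF and 12.5 ± 5.01 in L-fucose (SD, n = 6 each). Those most like Cav1 were Tox (0.84), AI427809 (0.82), the cholesterol transporter Abca1 (0.79), Otud6b (0.77) and the actin-capping subunit Capza2 (0.74). AI427809 was low too, at 12.91 ± 20.17 normalized reads in aCSF and 16.61 ± 6.825 in L-fucose (SD, n = 6 each). Without aCSF 5 and 6 the r of Pon1 with Col1a2 was 0.83, that of Tox with Cav1 0.71 and that of Abca1 with Cav1 0.80.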

How the data were processed

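The deposited table holds 56923 Ensembl rows for 12 libraries, and its values are a normalized signal: found from the values, the authors divided whole reads by 1 size factor per library, and 100% of values were whole multiples of 1 read within 0.01 reads. Per the submitters' processing notes, the tools were the trimmer Trimmomatic 0.39, the aligner HISAT2 2.2.1, the counter featureCounts 2.0.3, the package DESeq2 2.11.40.8 and, as build, mm10. These sources state neither annotation release nor strand setting. Columns not used numbered 0.

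Rows that reached a value of 10 in 6 or more libraries entered limma 3.58.1 on log2(value + 1), with a variance trend and treatment as the sole term. P-values were two-sided and adjusted by Benjamini-Hochberg over all tested rows. Fold changes on this scale understate the change of low rows. Symbols, positions and exons are from GENCODE M21. The scan for rows in register used windows of 80 rows in steps of 20, displacements in steps of 500 bp and regions of at least 120 rows. It was run by share of exonic bases and by presence of an exon, and the share was chosen after both results were seen. The fits and the scan were tested on simulated data.

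Permutation tests ran within groups for correlations. Floors of 3 reads cover counting error only. Named genes are the 9 members, every tested gene in register of the list near them, the 5 rows in register most like Col1a2 and Cav1, and up to 4 in register of other lists, without predicted models. Members and lists were chosen with earlier results of these data known. Ratios, exact enumeration for Cav2, relations with library properties by setting and counts of the highest library were added after values were seen. Alternatives used edgeR 4.0.16 and DESeq2 1.42.0 in R 4.3.3, with Python 3.11.15, numpy 2.4.6, pandas 2.3.3 and scipy 1.17.1.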

Additional observations from a re-analysis of the deposited data

Results flagged for a closer look

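Groups of 6 libraries were searched for a highest or lowest library far from the nearest of the others, by Dixon's 95% criterion. Over 62 groups 3 met it, and chance gives about 5% of groups. Adamts12 was 24.94 normalized reads in aCSF 2, with the other aCSF libraries from 0 to 6.875. Osr2 was 7.263 in L-fucose 5, with the other L-fucose libraries from 0 to 2.357. Runx1t1 was 293.1 in L-fucose 2, with the others from 358.2 to 393.9.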

How the results depend on the processing

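The count of rows past the adjusted threshold was 0 under limma with other pseudocounts and filters, non-mitochondrial scaling and edgeR, and 1 with DESeq2 on 29080 rows. Rows at an unadjusted p under 0.05 numbered 643, 1232 of 29235 with no filter, 1054 with DESeq2, 1177 of 10425 without aCSF 5 and 6, and 426 to 771 when libraries were left out in turn. Fitted without aCSF 5 and 6, the log2 fold change turned sign for Cav1 (0.036), Wnt2 (0.13), Col28a1 (-0.37) and Samd9l (0.12), and the cause was not tested. Leaving out each library in turn, it ranged from -0.053 to 0.054 for Cav1, -0.044 to 0.15 for Gng11, -0.14 to 0.015 for Mmp16, -0.0043 to 0.094 for Pon2, -0.18 to 0.00088 for Runx1t1, -0.25 to 0.025 for Samd9l, -0.15 to 0.028 for Thsd7a and -0.30 to 0.028 for Wnt2, and, with no change of sign, from -0.48 to -0.19 for Gem, -1.43 to -0.55 for Tfpi2 and -0.37 to -0.10 for Tes. Over 21 alternatives each, Tgfbr1 had an unadjusted p under 0.05 in 9, Col1a2 in 2 and Cav2 in 1, and no adjusted p of the 7 tested genes passed. The number of gene pairs that correlated past the adjusted threshold was 0 throughout. Relations with library properties past it numbered 1, with 0 under non-mitochondrial scaling (Cav2 r = 0.71), 0 without aCSF 5 and 6 (Cav2 r = 0.57), and 0 to 2 when libraries were left out in turn (Cav2 r from 0.72 to 0.91). Non-mitochondrial scaling moved the median log2 fold change by -0.03. With the replicate block limma gave 0 rows past the adjusted threshold and 585 unadjusted. The unadjusted limma p of Tgfbr1 rose to 0.0669. That of Cav2 fell from 0.112 to 0.0525 and that of Tfpi2 from 0.0962 to 0.0133, both with an adjusted p of 0.901 under the block. Deviations of same-numbered libraries of the groups correlated at -0.168 to 0.170, with the own number best in 1 of 6. This check cannot exclude shared animals, because rows of a library also share its depth and mitochondrial share. The main fit left the numbers out, and the replicate block used them. Measured by presence of an exon instead of share of exonic bases, 0 of 9 genes lay in register. Osr2 and Adamts12, at 32 and 81 reads, are limited by depth.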
